A study of Mus musculus with 34 samples.

Results

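Flank tumors of mouse small cell lung cancer (SCLC) treated with the LSD1 inhibitor bomedemstat (BOM) plus an anti-PD1 antibody were compared with tumors treated with the anti-PD1 antibody alone. The 9 libraries were chosen by their treatment label, 4 from BOM plus anti-PD1 tumors and 5 from anti-PD1 tumors, out of 34 libraries of the series. Both groups carried anti-PD1, so the comparison measures the addition of BOM. The tumors grew in the flank of immunocompetent mice from the SCLC cell line RP-48OVA-LLO190, were treated for 16 d, and were sequenced as polyadenylated RNA. BOM tumors without anti-PD1 (n = 4) and vehicle tumors (n = 5) came from the same experiment, and cells of the same line were cultured for 10 d with BOM (n = 2) or DMSO (n = 3). The tumors come from 1 cell line, and the labels give no mouse strain, age or dose. They do not say that each library is a separate mouse, so p-values measure the spread between these libraries.

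LSD1, the product of Kdm1a, removes methyl groups from histone H3 and acts with CoREST proteins and histone deacetylases to keep genes silent. SCLC is a neuroendocrine tumor that is known for low Notch signaling and low surface MHC class I, and loss of LSD1 activity is known to release Notch1 in SCLC cells. PD-1 is an inhibitory receptor of T cells. Interferon gamma from T cells acts through transcription factors such as IRF1 to raise genes of antigen presentation in the cells that it reaches.

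The libraries of BOM plus anti-PD1 tumors held 7.04 to 8.36 M counts and those of anti-PD1 tumors 5.68 to 7.23 M. A level is given in CPM, the count of a gene scaled to the size of its library and not divided by gene length, so levels of different genes are not compared. Fold changes are BOM plus anti-PD1 over anti-PD1 on the log2 scale with their standard error (SE), and called genes have an adjusted p under 0.05 in edgeR's quasi-likelihood test. The test estimated its spread from all 18 tumor libraries. Among these, the libraries labelled vehicle 1 and vehicle 2 stood apart from their group. Rest, for example, was at 30.7 and 20.4 CPM there, against 3.43 to 6.19 CPM in vehicle tumors 3 to 5, while BOM tumors were at 37.8 to 46.4 CPM. Vehicle 1 and vehicle 2 were also the deepest of the 18 libraries. They held 82.2 and 13.2 M counts, against 5.64 to 7.27 M in vehicle tumors 3 to 5. Neither library is in either group compared here, but both enter the shared spread and the BOM over vehicle values, which are therefore also given without them.

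In all, 4637 of 14332 genes tested were called (32.4%). BOM plus anti-PD1 tumors were higher for 2263 genes (15.8%) and lower for 2374 (16.6%), and the median log2 fold change over all genes was -0.01. Rises were more often large. A called change of at least 2-fold was found upward for 756 genes (5.27%) and downward for 335 (2.34%). The 4 BOM plus anti-PD1 tumors lay above all 5 anti-PD1 tumors for 1744 genes (12.2%) and below all of them for 1712 (11.9%). Without vehicle tumors 1 and 2 in the fit, 2415 genes were called higher and 2182 lower. The ranking by p depended on those libraries: of the 100 genes with the lowest p, 84 were lower in the fit of all tumors and 24 in the fit without them. Leaving out each of the 9 tumors in turn left 3727 to 4621 calls, and 1562 higher and 1410 lower calls held in every one of these 9 fits.

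**Figure D1:**
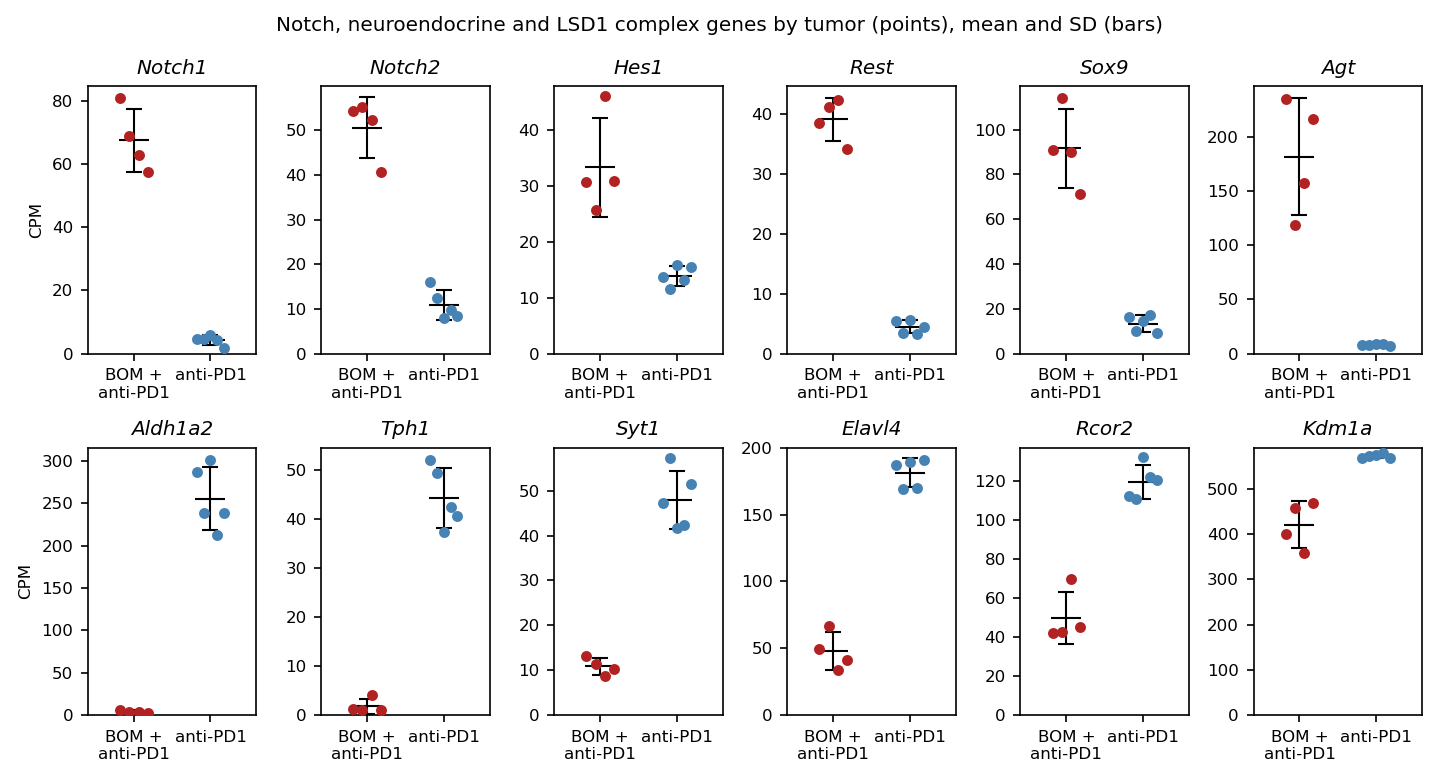
Level (CPM, linear axis from 0) of 12 genes in each tumor, with BOM plus anti-PD1 tumors on the left (4 points) and anti-PD1 tumors on the right (5 points). Horizontal marks and bars are the mean and SD; the groups do not overlap for any of these genes, and Kdm1a shows the smallest relative difference.

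Genes of retinoid and serotonin synthesis and of neurons were among the 10 largest falls. Aldh1a2, which encodes an enzyme that makes retinoic acid (chr9:71215789-71296243, plus strand, coordinates in mm10), had 6.04, 3.48, 3.34 and 2.40 CPM in BOM plus anti-PD1 tumors, against 287, 239, 301, 212 and 238 CPM in anti-PD1 tumors. Every BOM plus anti-PD1 tumor was far below every anti-PD1 tumor (log2 fold change -6.07 ± 0.48, SE, adjusted p = 2.77e-06). In BOM tumors Aldh1a2 was at 2.65 to 10.4 CPM, in vehicle tumors 3 to 5 at 261 to 273 CPM, and in the libraries labelled vehicle 1 and 2 at 68.3 and 114 CPM. Tph1, which encodes the first enzyme of serotonin synthesis (chr7:46644641-46672537, minus strand), had 1.27, 0.961, 4.10 and 0.990 CPM in BOM plus anti-PD1 tumors, against 52.04, 49.3, 37.5, 42.5 and 40.6 CPM in anti-PD1 tumors. Tumor 3 was the highest of the BOM plus anti-PD1 tumors and still far below the other group (log2 fold change -4.58 ± 0.52, SE, adjusted p = 2.79e-05). Cntn4, a neuronal adhesion molecule of the contactin family, was at 0.281, 0.360, 2.18 and 0.707 CPM in BOM plus anti-PD1 tumors, against 33.4, 44.8, 25.5, 32.4 and 31.7 CPM in anti-PD1 tumors (log2 fold change -5.22 ± 0.50, SE, adjusted p = 8.74e-06). Oprd1, the delta opioid receptor, was at 0.281, 1.32, 0.513 and 1.13 CPM in BOM plus anti-PD1 tumors, against 9.67, 27.1, 13.7, 13.3 and 15.1 CPM in anti-PD1 tumors (log2 fold change -4.25 ± 0.52, SE, adjusted p = 4.37e-05). Among the 10 largest falls were also Cnpy1 (-5.54), Hepacam2 (-4.54), Jhy (-3.86), Fbp1 (-3.78), Mctp2 (-3.64) and Stmn4 (-3.28), all as log2 fold changes. Fbp1 encodes a gluconeogenic phosphatase and Stmn4 a stathmin of neurons. The 10 falls, and the 10 rises below, were chosen among called genes without overlap between the groups. Their separation was therefore set by that choice.

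The largest rises were of genes with low levels in anti-PD1 tumors. Agt, which encodes angiotensinogen, had 235, 118, 157 and 217 CPM in BOM plus anti-PD1 tumors, against 7.90, 7.70, 8.74, 8.46 and 7.04 CPM in anti-PD1 tumors, and each BOM plus anti-PD1 tumor was more than an order of magnitude higher (log2 fold change 4.51 ± 0.65, SE, adjusted p = 0.000126). Adcy5, an adenylate cyclase (chr16:35154877-35305738, plus strand), had 54.8, 57.4, 59.9 and 48.3 CPM in BOM plus anti-PD1 tumors, against 1.93, 0.700, 1.25, 1.02 and 1.69 CPM in anti-PD1 tumors (log2 fold change 5.36 ± 0.75, SE, adjusted p = 0.000101). Grin2a, an NMDA receptor subunit, was at 26.3, 18.5, 14.5 and 27.4 CPM in BOM plus anti-PD1 tumors, against 0.322, 0.700, 0.357, 1.46 and 0.423 CPM in anti-PD1 tumors (log2 fold change 5.01 ± 0.80, SE, adjusted p = 0.000236). Wif1, a secreted inhibitor of Wnt ligands, was at 16.03, 14.9, 15.01 and 16.3 CPM in BOM plus anti-PD1 tumors, against 0.483, 0.525, 0.178, 1.46 and 0.704 CPM in anti-PD1 tumors (log2 fold change 4.47 ± 0.72, SE, adjusted p = 0.000247). The other 6 largest rises were Kcnip1 (5.67), a potassium channel-interacting protein, Tmem156 (5.40), Kank4 (4.68), Pamr1 (4.45), Spon2 (4.41) and Psd2 (4.36), as log2 fold changes. Spon2 was at 21.6, 22.8, 50.5 and 22.9 CPM in BOM plus anti-PD1 tumors, with tumor 3 apart from the other 3, and at 2.58, 1.05, 1.96, 0.876 and 0.564 CPM in anti-PD1 tumors. In cultured cells of the line, 8 of these 10 genes were tested. All 8 were called higher with BOM, against 12.1% of all genes tested there. Agt was among them (log2 fold change 2.91, BOM mean 127 and DMSO mean 16.97 CPM). Tmem156 and Pamr1 were at 0 CPM in all those culture libraries.

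Among the 19 tested genes of the Notch pathway list, 8 were called higher (42.1%, against 15.8% of all genes tested) and 4 lower (21.1%, against 16.6%). Of the receptors, Notch1 (chr2:26457903-26516663, minus strand) had 80.8, 69.1, 62.98 and 57.5 CPM in BOM plus anti-PD1 tumors, against 4.67, 4.55, 5.89, 4.38 and 1.83 CPM in anti-PD1 tumors. The lowest BOM plus anti-PD1 tumor was about an order of magnitude above the highest anti-PD1 tumor (log2 fold change 4.01 ± 0.65, SE, adjusted p = 0.000262). Notch2 had 54.4, 55.2, 52.2 and 40.6 CPM in BOM plus anti-PD1 tumors, against 16.1, 12.4, 7.85, 9.78 and 8.31 CPM in anti-PD1 tumors, again without overlap (log2 fold change 2.22 ± 0.33, SE, adjusted p = 0.000143). The ligand gene Jag1 rose (log2 fold change 1.89 ± 0.31, SE, adjusted p = 0.000284) while Dll1, another ligand gene, fell (log2 fold change -0.996 ± 0.31, SE, adjusted p = 0.0198). The repressors that Notch switches on include Hes1, which was at 30.6, 25.7, 46.2 and 30.96 CPM in BOM plus anti-PD1 tumors, against 13.7, 11.5, 15.9, 13.1 and 15.5 CPM in anti-PD1 tumors (log2 fold change 1.26 ± 0.25, SE, adjusted p = 0.00117). Hes5 was higher as well (log2 fold change 1.93 ± 0.49, SE, adjusted p = 0.00575), and Hey2 had a log2 fold change of 0.69 (adjusted p = 0.0408). The remaining calls were small rises of Dll4 (0.61) and Lfng (0.33) and falls of Rbpj (-0.24), Jag2 (-0.30) and Mfng (-0.51), as log2 fold changes. Without anti-PD1 tumor 4, BOM plus anti-PD1 tumor 3 or BOM plus anti-PD1 tumor 4, 2 members were called lower.

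Rest, which encodes a repressor of neuronal genes and is known as a Notch target in SCLC (chr5:77265491-77286432, plus strand), had 38.5, 41.2, 42.3 and 34.2 CPM in BOM plus anti-PD1 tumors, against 5.48, 3.50, 5.53, 3.21 and 4.51 CPM in anti-PD1 tumors. The groups were separated by a wide gap (log2 fold change 3.14 ± 0.47, SE, adjusted p = 0.000157). Sox9, a transcription factor of progenitor cells, had 90.7, 114, 90.2 and 71.4 CPM in BOM plus anti-PD1 tumors, against 16.1, 9.97, 14.6, 17.1 and 9.16 CPM in anti-PD1 tumors (log2 fold change 2.77 ± 0.44, SE, adjusted p = 0.000212). Snai2, a transcription factor of epithelial-mesenchymal transition, was at 18.4, 13.1, 15.1 and 17.4 CPM in BOM plus anti-PD1 tumors, against 2.26, 1.05, 1.96, 1.61 and 1.41 CPM in anti-PD1 tumors (log2 fold change 3.26 ± 0.53, SE, adjusted p = 0.000246). Of 20 genes listed for non-neuroendocrine and mesenchymal states, these 3 and Zeb1 (0.56, adjusted p = 0.00949) were called higher (20%, against 15.8% of all genes tested) and 0 lower, with 5 genes at an unadjusted p under 0.05 and 4 called by DESeq2. Other members were not called, among them Vim (0.44), Axl (0.70) and Yap1 (-0.59), and the list median was 0.31. Without anti-PD1 tumor 1, 7 members were called higher, as with limma voom, and 6 without vehicle tumors 1 and 2. Fibroblasts also express such genes, and the summed level of 12 fibroblast markers was 453 to 803 CPM in BOM plus anti-PD1 tumors and 311 to 2513 CPM in anti-PD1 tumors, highest in anti-PD1 tumors 1 and 3. The part of fibroblasts in the mesenchymal values was not tested.

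Genes of neuroendocrine identity moved mostly down. Of 22 tested members, 12 were called lower (54.5%, against 16.6% of all genes tested) and 2 higher (9.09%), with a median log2 fold change of -0.55. Syt1, the calcium sensor of synaptic vesicle release (chr10:108497650-109010982, minus strand), had 13.2, 11.3, 8.59 and 10.3 CPM in BOM plus anti-PD1 tumors, against 47.2, 57.2, 41.7, 42.3 and 51.4 CPM in anti-PD1 tumors (log2 fold change -2.14 ± 0.28, SE, adjusted p = 5.86e-05). Elavl4, a neuronal RNA-binding protein, had 49.8, 66.8, 33.7 and 41.3 CPM in BOM plus anti-PD1 tumors, against 187, 169, 189.6, 169.7 and 191 CPM in anti-PD1 tumors (log2 fold change -1.92 ± 0.24, SE, adjusted p = 4.56e-05). Neurod1, a transcription factor of a neuroendocrine subtype of SCLC, was at 3.37, 3.48, 2.18 and 2.54 CPM in BOM plus anti-PD1 tumors, against 11.9, 10.7, 12.8, 8.32 and 13.4 CPM in anti-PD1 tumors (log2 fold change -1.98 ± 0.33, SE, adjusted p = 0.000271). Calca, which encodes calcitonin and CGRP, fell as well (log2 fold change -1.22 ± 0.21, SE, adjusted p = 0.000317), as did Snap25 (-1.15), Dll3 (-1.06), Elavl3 (-1.04), Scg3 (-0.97), Syp (-0.83), Uchl1 (-0.67), Foxa2 (-0.59) and Nkx2-1 (-0.52), as log2 fold changes. Chga, chromogranin A, a defining marker of neuroendocrine cells, was at 392, 429, 217 and 522 CPM in BOM plus anti-PD1 tumors, against 502, 442, 511, 464 and 492 CPM in anti-PD1 tumors (log2 fold change -0.31 ± 0.20, SE, adjusted p = 0.26), and the groups overlapped. Insm1 was not called (0.14, adjusted p = 0.109). The 2 members called higher were Sez6, a neuronal surface protein, at 179, 186, 105 and 285 CPM in BOM plus anti-PD1 tumors, against 33.8, 41.3, 38.4, 41.6 and 35.2 CPM in anti-PD1 tumors (log2 fold change 2.31 ± 0.40, SE, adjusted p = 0.000373), and Ddc, with a log2 fold change of 0.31.

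Among 13 genes of LSD1 and its partners, 4 were called lower (30.8%, against 16.6% of all genes tested) and 2 higher (15.4%, against 15.8%). BOM acts on the LSD1 protein, so the transcript does not check the treatment. Kdm1a itself (chr4:136550540-136602723, minus strand) had 399.7, 458, 359 and 468 CPM in BOM plus anti-PD1 tumors, against 568, 574, 576, 581 and 568 CPM in anti-PD1 tumors. Its fall was small but the groups did not overlap (log2 fold change -0.44 ± 0.07, SE, adjusted p = 0.000256). Rcor2, a CoREST family partner of LSD1, had 41.9, 42.5, 69.8 and 44.95 CPM in BOM plus anti-PD1 tumors, against 113, 111, 133, 122 and 121 CPM in anti-PD1 tumors, with tumor 3 the highest of the BOM plus anti-PD1 tumors (log2 fold change -1.27 ± 0.18, SE, adjusted p = 0.000111). The deacetylase genes Hdac1 (-0.58 ± 0.10) and Hdac2 (-0.36 ± 0.06) also fell, as log2 fold changes. Gfi1, a repressor that recruits LSD1, rose (log2 fold change 0.60 ± 0.13, SE, adjusted p = 0.00169). Rcor1 (0.10) and Rcor3 (0.07) were not called. Without anti-PD1 tumor 2, 4 members were called higher.

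**Figure D2:**
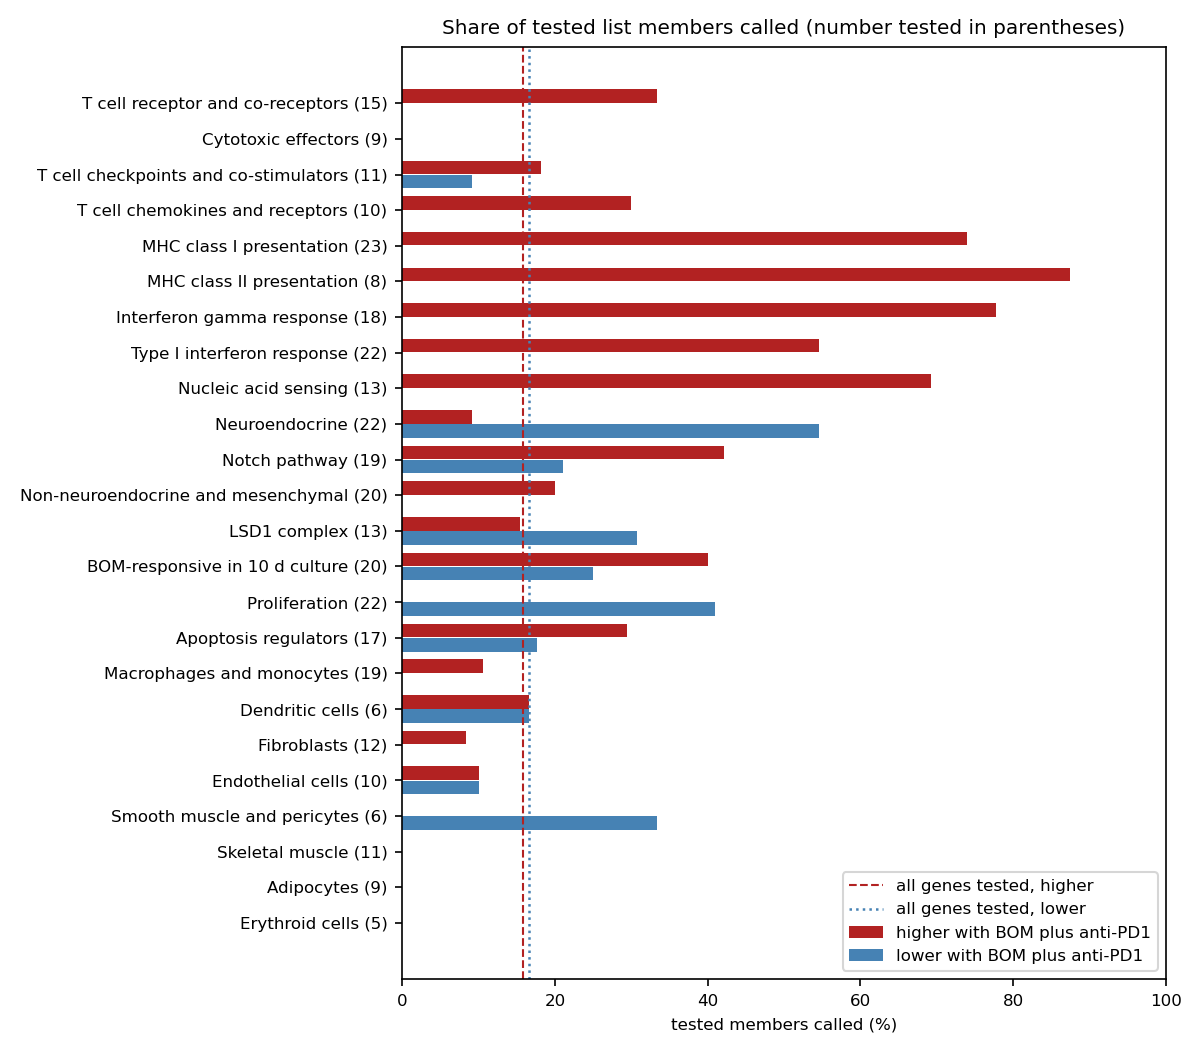
Percent of tested members called higher (red) and lower (blue) in BOM plus anti-PD1 over anti-PD1 tumors for the gene lists with 5 or more tested members. Dashed and dotted lines mark the shares over all genes tested, 15.8% higher and 16.6% lower; the MHC, interferon and nucleic acid sensing lists reach furthest above the first line.

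Genes of the interferon gamma response and of antigen presentation rose together. In the interferon gamma response list 14 of 18 tested members were called higher (77.8%, against 15.8% of all genes tested) and 0 lower, with a median log2 fold change of 2.07. In the MHC class I list 17 of 23 members were called higher (73.9%) with a median of 1.06, and in the MHC class II list 7 of 8 (87.5%) with a median of 1.75. The type I interferon list had 12 of 22 higher (54.5%) and the nucleic acid sensing list 9 of 13 (69.2%). None of these 5 lists had a member called lower by edgeR, and 17 interferon gamma, 21 MHC class I, 7 MHC class II, 15 type I interferon and 10 sensing members had an unadjusted p under 0.05. BOM plus anti-PD1 tumor 1 was the highest of the 9 tumors in the summed levels of the interferon gamma, MHC class II, type I interferon and sensing lists. Without it, 9 interferon gamma, 6 MHC class I, 1 MHC class II and 7 type I interferon members were called. The MHC class I count was also 10 without BOM plus anti-PD1 tumor 4 and 10 without anti-PD1 tumor 4. MHC class I sums were highest in BOM plus anti-PD1 tumor 4 (9717 CPM). The MHC class II count was 3, 2 and 2 without anti-PD1 tumors 2, 4 and 5. The type I interferon count was 19 without anti-PD1 tumor 1 and 7 without anti-PD1 tumor 2, 4 or 5.

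Irf1, a transcription factor that carries the interferon gamma signal, and 3 genes that such factors are known to drive are shown with the 250 bases before and 50 bases after their RefSeq start (GRCm38.p6), because these genes rose together. Capitals mark matches to GAAA, any 2 bases and GAAA again, a core of the interferon-stimulated response element, and to TTCNNNGAA, a core of the gamma-activated site. Both strands were searched, and each motif was counted on its own, so 1 promoter can count for both.
Irf1 (chr11:53769764-53770063, plus strand): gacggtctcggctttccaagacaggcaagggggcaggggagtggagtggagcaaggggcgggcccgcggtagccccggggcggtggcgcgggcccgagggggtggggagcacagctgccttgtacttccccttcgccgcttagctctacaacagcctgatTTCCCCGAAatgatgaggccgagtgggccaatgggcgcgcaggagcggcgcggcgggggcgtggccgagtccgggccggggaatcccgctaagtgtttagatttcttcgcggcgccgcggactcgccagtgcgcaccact
Tgtp1 (chr11:48992197-48992496, minus strand): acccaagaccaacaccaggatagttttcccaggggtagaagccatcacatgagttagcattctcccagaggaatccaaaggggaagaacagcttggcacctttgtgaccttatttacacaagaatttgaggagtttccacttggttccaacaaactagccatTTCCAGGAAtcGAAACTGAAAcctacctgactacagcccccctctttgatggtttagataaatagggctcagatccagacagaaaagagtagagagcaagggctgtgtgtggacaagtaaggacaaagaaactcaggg
Cxcl10 (chr5:92348840-92349139, minus strand): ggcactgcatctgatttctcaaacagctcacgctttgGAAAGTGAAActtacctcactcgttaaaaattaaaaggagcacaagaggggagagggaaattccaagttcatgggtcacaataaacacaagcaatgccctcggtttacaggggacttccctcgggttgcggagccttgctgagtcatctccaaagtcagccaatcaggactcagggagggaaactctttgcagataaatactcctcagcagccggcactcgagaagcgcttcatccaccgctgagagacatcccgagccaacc
Erap1 (chr13:74639603-74639902, plus strand): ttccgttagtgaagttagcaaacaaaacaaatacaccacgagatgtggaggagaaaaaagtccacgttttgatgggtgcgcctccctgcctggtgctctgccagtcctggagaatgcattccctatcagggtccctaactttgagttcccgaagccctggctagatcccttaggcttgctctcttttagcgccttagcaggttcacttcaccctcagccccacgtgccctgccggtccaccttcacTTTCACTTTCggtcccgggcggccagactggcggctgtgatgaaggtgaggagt
The match in Irf1 is TTCNNNGAA and begins at -90 from the start, and Tgtp1 has TTCNNNGAA at -88 and the GAAA pair at -77. Cxcl10 has the GAAA pair at -213, and Erap1 has it on the opposite strand at -4. The GAAA pair was found in 3.99% of the 27025 promoters of genes in the count table. It was found in 9 of the 14 promoters on hand for the interferon gamma list (64.3%), 9 of 18 for type I interferon (50%), 5 of 20 for MHC class I (25%) and 1 of 7 for MHC class II (14.3%). TTCNNNGAA was in 9.55% of all promoters and in 8 of 14 interferon gamma promoters (57.1%), 4 of 18 type I interferon promoters (22.2%), 2 of 20 MHC class I promoters (10%) and 0 of 7 MHC class II promoters. These are matches of letters in a window and show no binding.

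**Figure D3:**
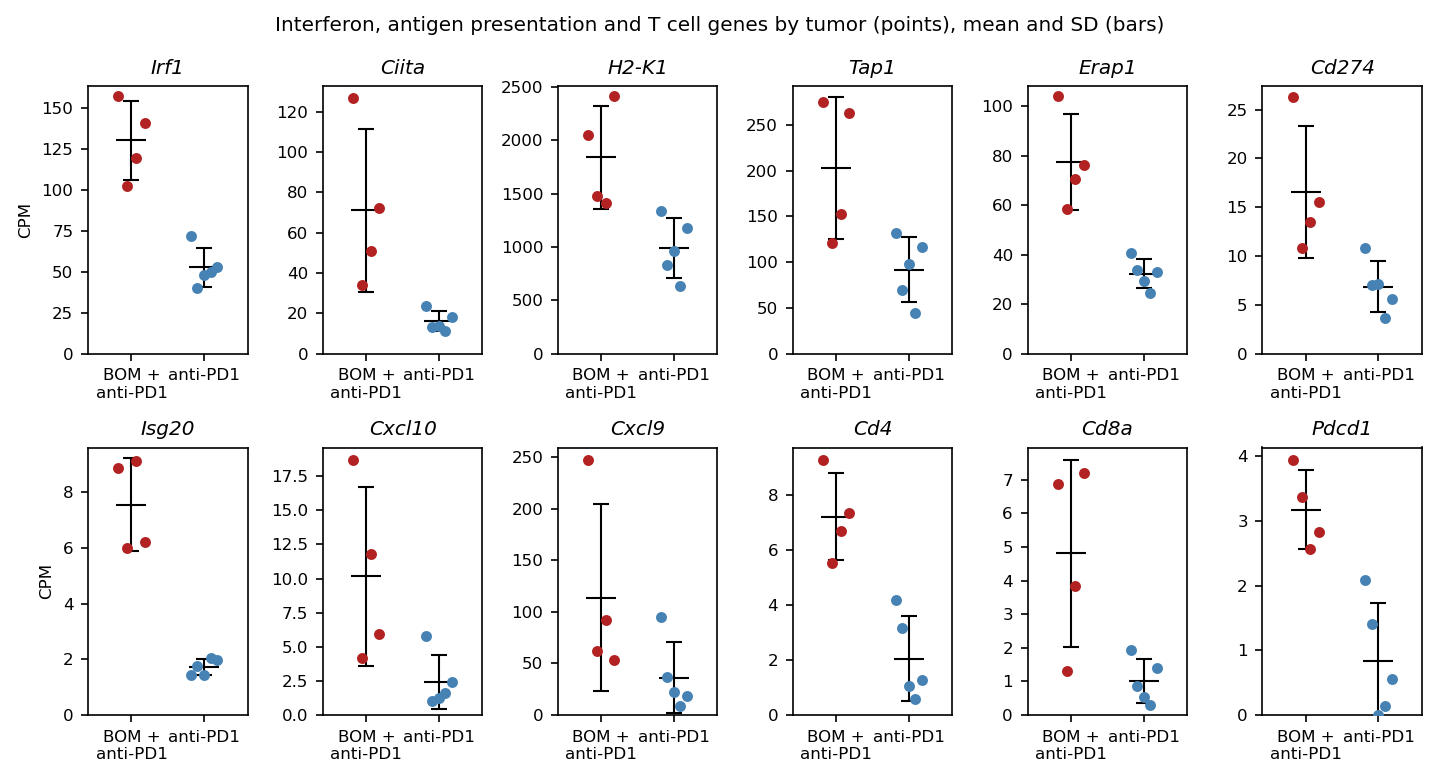
Level (CPM, linear axis from 0) of 12 interferon, antigen presentation and T cell genes in each tumor, BOM plus anti-PD1 tumors on the left (4 points) and anti-PD1 tumors on the right (5 points), with mean and SD as bars. BOM plus anti-PD1 tumor 1, the first red point, is the highest of its group for Irf1, Ciita, Tap1, Erap1, Cd274, Cxcl10, Cxcl9, Cd4 and Pdcd1.

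Irf1 had 157, 102, 119.6 and 141 CPM in BOM plus anti-PD1 tumors, against 71.9, 40.2, 48.2, 49.6 and 53.1 CPM in anti-PD1 tumors. All 4 BOM plus anti-PD1 tumors were above all anti-PD1 tumors (log2 fold change 1.30 ± 0.22, SE, adjusted p = 0.000336). Tgtp1, an interferon-induced GTPase, had 17.2, 3.72, 6.29 and 10.04 CPM in BOM plus anti-PD1 tumors, against 1.93, 0.525, 0.535, 0.146 and 0.564 CPM in anti-PD1 tumors (log2 fold change 3.64 ± 0.72, SE, adjusted p = 0.00101). Its near-identical copy in the genome makes its counts uncertain, as for the Gbp, Irgm and H2-Q families. Gbp3 (2.96), Gbp6 (2.65), Igtp (2.81) and Irgm2 (2.75), GTPases of cell-autonomous defense, rose by comparable log2 fold changes. Cd274, which encodes the PD-1 ligand PD-L1, was at 26.3, 10.8, 13.5 and 15.6 CPM in BOM plus anti-PD1 tumors, against 10.8, 6.998, 7.14, 3.65 and 5.64 CPM in anti-PD1 tumors (log2 fold change 1.27 ± 0.44, SE, adjusted p = 0.035). Its call was lost without BOM plus anti-PD1 tumor 1 (adjusted p = 0.132) or 4 (0.0502), and without anti-PD1 tumor 2, 3, 4 or 5 (0.0513 to 0.0775). Socs1, Irf8, Serpina3g and Pdcd1lg2 were not called, with log2 fold changes of 1.18, 1.09, 1.54 and 0.79.

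In the MHC class I pathway the chains, the peptide transporter, the loading proteins and the trimming enzyme all had called members. H2-K1, a classical class I chain (chr17:33996017-34000347, minus strand), had 2052, 1473, 1414 and 2420.03 CPM in BOM plus anti-PD1 tumors, against 1337, 827, 959, 629.8 and 1181 CPM in anti-PD1 tumors. The highest anti-PD1 tumor lay just below the lowest BOM plus anti-PD1 tumor (log2 fold change 0.90 ± 0.25, SE, adjusted p = 0.00994). B2m, the light chain, was at 1453, 1011, 984 and 1289 CPM in BOM plus anti-PD1 tumors, against 1046, 722, 737, 468 and 762 CPM in anti-PD1 tumors, and the groups overlapped through anti-PD1 tumor 1 (log2 fold change 0.66 ± 0.21, SE, adjusted p = 0.0201). Without BOM plus anti-PD1 tumor 1 the adjusted p of B2m was 0.0661. Tap1, a subunit of the peptide transporter, was at 275, 121, 152 and 263 CPM in BOM plus anti-PD1 tumors, against 131, 69.1, 98.1, 44.2 and 116 CPM in anti-PD1 tumors (log2 fold change 1.14 ± 0.36, SE, adjusted p = 0.0214), and its call was lost without BOM plus anti-PD1 tumor 1 (adjusted p = 0.0698) or 4 (0.0606). Tapbp, the loading chaperone tapasin, had 162, 109.9, 111 and 137 CPM in BOM plus anti-PD1 tumors, against 87.97, 52.3, 55.3, 45.4 and 50.02 CPM in anti-PD1 tumors (log2 fold change 1.16 ± 0.25, SE, adjusted p = 0.00177). Erap1, which trims peptides in the endoplasmic reticulum, had 104, 58.2, 70.7 and 76.3 CPM in BOM plus anti-PD1 tumors, against 40.6, 33.9, 29.4, 24.4 and 33.1 CPM in anti-PD1 tumors (log2 fold change 1.26 ± 0.22, SE, adjusted p = 0.00047). The immunoproteasome gene Psmb10 rose (log2 fold change 1.27 ± 0.28, SE, adjusted p = 0.00208), whereas Psmb8 was not called (1.06, adjusted p = 0.0539). Nlrc5, the transactivator of class I genes, was at 376, 176, 217 and 257 CPM in BOM plus anti-PD1 tumors, against 201, 173, 146, 98.5 and 216 CPM in anti-PD1 tumors and was not called (log2 fold change 0.62 ± 0.27, SE, adjusted p = 0.0838). The constitutive chaperone genes Canx (-0.01) and Pdia3 (0.19) were not called, and Calr had a log2 fold change of 0.21 (adjusted p = 0.0489).

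Ciita, the transactivator of class II genes (chr16:10480059-10528418, plus strand), had 127, 33.9, 50.9 and 72.5 CPM in BOM plus anti-PD1 tumors, against 23.8, 13.3, 13.7, 11.1 and 18.03 CPM in anti-PD1 tumors (log2 fold change 2.15 ± 0.43, SE, adjusted p = 0.00109). H2-Aa, a class II chain that antigen-presenting cells carry, was at 561, 197, 151 and 323 CPM in BOM plus anti-PD1 tumors, against 194, 70.9, 86.2, 24.8 and 54.4 CPM in anti-PD1 tumors (log2 fold change 1.84 ± 0.58, SE, adjusted p = 0.0222), and without BOM plus anti-PD1 tumor 1 its adjusted p was 0.0930. Cd74, the invariant chain (1.75), and H2-DMa, a peptide exchange factor (1.74), also rose, as log2 fold changes. In the cultured line H2-Aa was near 0, at a BOM mean of 0 and a DMSO mean of 0.0587 CPM, whereas Ciita was at a BOM mean of 16.6 and a DMSO mean of 12.1 CPM there (log2 fold change 0.44, adjusted p = 0.0496). Of the 19 macrophage and monocyte markers, 15 had a log2 fold change above 0, 2 were called higher (10.5%, against 15.8% of all genes tested) and 0 lower. These were Cd14, a lipopolysaccharide co-receptor (log2 fold change 1.89 ± 0.39, SE, adjusted p = 0.00138), and Ly6c2, whose call was lost without BOM plus anti-PD1 tumor 1 (adjusted p = 0.335). The count was 5 without vehicle tumors 1 and 2 in the fit, 7 with limma voom, 7 without anti-PD1 tumor 1, and 1 without anti-PD1 tumor 2, 4 or 5 or BOM plus anti-PD1 tumor 1. Their summed level was 1144 to 2047 CPM in BOM plus anti-PD1 tumors and 507 to 1899 CPM in anti-PD1 tumors. In bulk tumors, fewer cells of a type and less RNA per cell cannot be told apart, and the part of immune cells in the MHC and interferon values was not tested.

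In the type I interferon list, Isg20, an antiviral exonuclease (chr7:78913424-78920396, plus strand), had 8.86, 6.005, 9.11 and 6.22 CPM in BOM plus anti-PD1 tumors, against 1.45, 1.75, 1.43, 2.04 and 1.97 CPM in anti-PD1 tumors, without overlap (log2 fold change 2.11 ± 0.28, SE, adjusted p = 8.01e-05). Usp18, which removes the ubiquitin-like ISG15, was at 22.4, 15.6, 7.31 and 17.2 CPM in BOM plus anti-PD1 tumors, against 3.71, 1.75, 1.78, 1.02 and 1.27 CPM in anti-PD1 tumors (log2 fold change 3.04 ± 0.46, SE, adjusted p = 0.000164). Xaf1, a proapoptotic interferon target, had 75.1, 38.7, 58.8 and 59.2 CPM in BOM plus anti-PD1 tumors, against 25.9, 15.05, 16.2, 15.2 and 19.7 CPM in anti-PD1 tumors (log2 fold change 1.65 ± 0.25, SE, adjusted p = 0.000157). The classical targets Ifit1 (0.70), Ifit2 (-0.04), Ifit3 (0.63) and Rsad2 (0.22) were not called. Among the sensors of foreign or misplaced nucleic acid, Ifih1 (the RNA sensor MDA5) was at 47.4, 27.9, 39.5 and 31.7 CPM in BOM plus anti-PD1 tumors, against 25.1, 18.4, 16.4, 12.3 and 17.5 CPM in anti-PD1 tumors (log2 fold change 1.03 ± 0.21, SE, adjusted p = 0.00131). Tmem173 (STING) rose (log2 fold change 1.13 ± 0.23, SE, adjusted p = 0.00138), as did Tlr3 (0.98), Mavs (0.72) and Zbp1 (2.19), as log2 fold changes. Cgas (-0.11) and Adar (0.20) were not called.

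**Figure D4:**
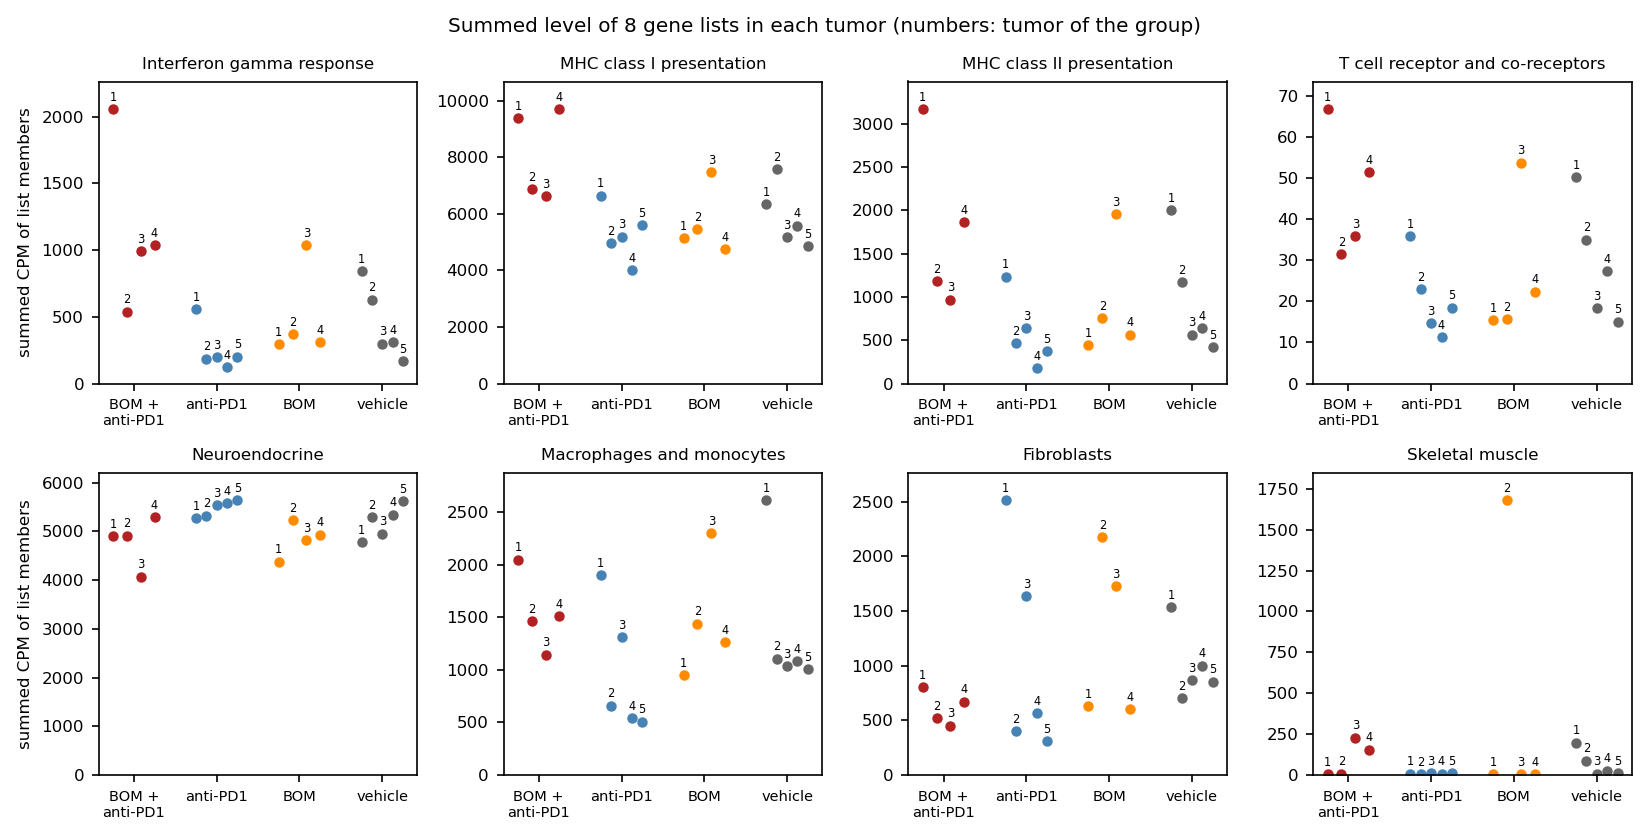
Summed level (CPM, linear axis from 0) of the members of 8 gene lists in each of the 18 tumors, in the order BOM plus anti-PD1, anti-PD1, BOM and vehicle; each point is 1 tumor with its number. Interferon gamma, MHC class II and T cell sums are highest in BOM plus anti-PD1 tumor 1 and the MHC class I sum in tumor 4; skeletal muscle genes are high in BOM plus anti-PD1 tumors 3 and 4, BOM tumor 2 and vehicle tumors 1 and 2.

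T cell genes had positive fold changes, and a minority of them were called. Of 15 tested genes of the T cell receptor and co-receptors, all 15 had a log2 fold change above 0 and 5 were called higher (33.3%, against 15.8% of all genes tested). Cd4, the helper T cell co-receptor that some macrophages also carry, had 9.28, 5.52, 6.67 and 7.35 CPM in BOM plus anti-PD1 tumors, against 4.19, 3.15, 1.07, 0.584 and 1.27 CPM in anti-PD1 tumors (log2 fold change 1.82 ± 0.51, SE, adjusted p = 0.0116). Cd8a, the co-receptor of cytotoxic T cells, was at 6.89, 1.32, 3.85 and 7.21 CPM in BOM plus anti-PD1 tumors, against 1.93, 0.875, 0.535, 0.292 and 1.41 CPM in anti-PD1 tumors, and BOM plus anti-PD1 tumor 2 lay within the range of the other group (log2 fold change 2.23 ± 0.75, SE, adjusted p = 0.0302). The Cd8a call was lost without BOM plus anti-PD1 tumor 1 or 4 or anti-PD1 tumor 2, 3 or 4 (adjusted p 0.0535 to 0.0774). Cd247, the zeta chain of the receptor, was at 2.25, 1.56, 0.770 and 2.54 CPM in BOM plus anti-PD1 tumors, against 0.483, 0.175, 0.357, 0.146 and 0.986 CPM in anti-PD1 tumors (log2 fold change 1.98 ± 0.53, SE, adjusted p = 0.00816). Cd3e, the chain that defines T cells, was at 2.39, 0.961, 1.54 and 1.27 CPM in BOM plus anti-PD1 tumors, against 1.77, 0.875, 0.714, 0 and 0.423 CPM in anti-PD1 tumors and was not called (log2 fold change 1.04 ± 0.72, SE, adjusted p = 0.289). Without BOM plus anti-PD1 tumor 1 or 4 or anti-PD1 tumor 2, 3 or 4, the list had 3 calls.

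None of the 9 tested cytotoxic effector genes was called by edgeR, with 3 at an unadjusted p under 0.05, 2 called by DESeq2 and 3 by limma voom. Without anti-PD1 tumor 1 edgeR called 3 of them and without BOM plus anti-PD1 tumor 2 it called 2. It also called 2, Ccl5 and Ctsw, in the fits without vehicle tumor 1, without vehicle tumors 1 and 2, and with only the 2 groups compared (adjusted p 0.0219 to 0.0286 for Ccl5 and 0.0295 to 0.0483 for Ctsw). The median log2 fold change of the list was 1.47. Prf1, which encodes perforin, was at 1.83, 0.600, 1.54 and 2.97 CPM in BOM plus anti-PD1 tumors, against 1.45, 0.700, 0, 0.438 and 0.282 CPM in anti-PD1 tumors (log2 fold change 1.56 ± 0.75, SE, adjusted p = 0.121). Gzmb, granzyme B, was at 2.53, 0.721, 1.54 and 3.39 CPM in BOM plus anti-PD1 tumors, against 3.54, 1.05, 0.178, 0.730 and 0.845 CPM in anti-PD1 tumors (log2 fold change 0.67 ± 0.72, SE, adjusted p = 0.509), and its groups overlapped widely. Ccl5, a chemokine of cytotoxic cells, was at 19.1, 4.56, 10.3 and 7.35 CPM in BOM plus anti-PD1 tumors, against 7.25, 2.45, 2.85, 1.17 and 1.69 CPM in anti-PD1 tumors (log2 fold change 1.75 ± 0.66, SE, adjusted p = 0.0503). Ctsw, a protease of cytotoxic cells, had a log2 fold change of 1.49 (adjusted p = 0.0603). The adjusted p of Ccl5 lay just above the threshold and was 0.0230 with DESeq2, 0.0155 without anti-PD1 tumor 1 and 0.0362 without BOM plus anti-PD1 tumor 2. Ifng did not pass the filter on low counts and was seen with 7, 1, 6 and 3 counts in BOM plus anti-PD1 tumors, against 1, 1, 0, 0 and 0 counts in anti-PD1 tumors.

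Among chemokines that draw T cells, Cxcl10 was at 18.7, 4.20, 11.8 and 5.94 CPM in BOM plus anti-PD1 tumors, against 5.80, 1.05, 1.25, 1.61 and 2.40 CPM in anti-PD1 tumors (log2 fold change 2.06 ± 0.60, SE, adjusted p = 0.0138), and its call was lost without BOM plus anti-PD1 tumor 1 (adjusted p = 0.0621). Cxcl9 was at 247, 61.7, 91.97 and 53.4 CPM in BOM plus anti-PD1 tumors, against 95.2, 36.7, 22.1, 8.61 and 18.6 CPM in anti-PD1 tumors and was not called (log2 fold change 1.65 ± 0.64, SE, adjusted p = 0.0551). Its adjusted p was 0.00759 without anti-PD1 tumor 1, 0.0412 without BOM plus anti-PD1 tumor 4 and 0.0468 without BOM plus anti-PD1 tumor 2. It was 0.0443 in the fit without vehicle tumor 1 and 0.0473 without vehicle tumors 1 and 2. Without BOM plus anti-PD1 tumor 1, 1 of 10 tested members of that list was called higher. In the fit of all tumors 3 were called higher (30.0%, against 15.8% of all genes tested) and 0 lower. Besides Cxcl10 these were Cxcl16 (1.003) and the receptor gene Cxcr6 (1.87), as log2 fold changes. Of 11 checkpoint and co-stimulator genes 2 were called higher (18.2%, against 15.8% of all genes tested) and 1 lower (9.09%, against 16.6%), with 4 higher without anti-PD1 tumor 1, 1 without anti-PD1 tumor 4 or 5, and none without BOM plus anti-PD1 tumor 1. Pdcd1, which encodes PD-1, was at 3.94, 3.36, 2.57 and 2.83 CPM in BOM plus anti-PD1 tumors, against 2.09, 1.40, 0, 0.146 and 0.564 CPM in anti-PD1 tumors (log2 fold change 1.91 ± 0.75, SE, adjusted p = 0.0574). Its adjusted p was 0.0261 without vehicle tumors 1 and 2 in the fit and 0.0223 without anti-PD1 tumor 1. Havcr2 (TIM-3) rose (log2 fold change 1.69 ± 0.54, SE, adjusted p = 0.023), and so did Entpd1 (CD39; log2 fold change 1.17 ± 0.37, SE, adjusted p = 0.0219), whose call was lost without BOM plus anti-PD1 tumor 1 (adjusted p = 0.0696) and without anti-PD1 tumor 4 or 5 (0.0503 each). Tox, a transcription factor of exhausted T cells, went the other way at 46.2, 32.7, 42.7 and 41.1 CPM in BOM plus anti-PD1 tumors, against 87.3, 84.7, 88.5, 95.2 and 97.1 CPM in anti-PD1 tumors (log2 fold change -1.16 ± 0.13, SE, adjusted p = 3.09e-05). The cultured tumor line also expressed Tox, at a BOM mean of 51.5 and a DMSO mean of 67.5 CPM, and the parts of tumor cells and T cells in its level cannot be told apart. Of 3 regulatory T cell genes, none was called by edgeR, DESeq2 or voom and 0 had an unadjusted p under 0.05, among them Il2ra (1.32) and Ikzf2 (0.43).

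Of 22 proliferation genes, 9 were called lower (40.9%, against 16.6% of all genes tested) and 0 higher, by small amounts, with a median log2 fold change of -0.14. Without BOM plus anti-PD1 tumor 3, 5 were called lower. Ccna2, cyclin A2, was at 184, 179.9, 172 and 177 CPM in BOM plus anti-PD1 tumors, against 213, 222, 218, 244 and 236 CPM in anti-PD1 tumors (log2 fold change -0.35 ± 0.06, SE, adjusted p = 0.000236), and Mcm2, a replicative helicase subunit, was at 374, 375, 367 and 386 CPM in BOM plus anti-PD1 tumors, against 439, 436, 467, 465 and 463 CPM in anti-PD1 tumors (log2 fold change -0.27 ± 0.06, SE, adjusted p = 0.00305). Mki67 was not called (0.15, adjusted p = 0.363). Among 17 apoptosis regulators, 5 were called higher (29.4%, against 15.8% of all genes tested) and 3 lower (17.6%, against 16.6%). Bcl2l11, which encodes the death activator BIM, was at 56.5, 60.2, 50.2 and 53.4 CPM in BOM plus anti-PD1 tumors, against 27.2, 27.1, 19.4, 16.6 and 25.5 CPM in anti-PD1 tumors (log2 fold change 1.25 ± 0.19, SE, adjusted p = 0.000164). Bak1, a pore-forming effector (1.12), rose as well, while the p53 target Bbc3 (PUMA) fell (-0.75), as log2 fold changes.

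Calls among markers of other cells that a flank tumor can hold are set against 15.8% higher and 16.6% lower of all genes tested. Of 12 fibroblast genes 1 was called higher (8.33%), namely Pdgfra (1.05), and 0 lower. Col3a1, a fibrillar collagen, was not called (-1.16, adjusted p = 0.147). Of 10 endothelial markers Kdr was called higher (0.52) and Vwf lower (-0.68), each 10% of those tested. Without any 1 of 7 of the 9 tumors no endothelial marker was called higher, and 2 were without anti-PD1 tumor 3. Smooth muscle markers had 0 higher and 2 of 6 lower (33.3%), Acta2 (-1.32) and Tagln (-1.27). Both calls were lost without anti-PD1 tumor 1 or 3 and without BOM plus anti-PD1 tumor 1, 2 or 3, with adjusted p 0.0574 to 0.143 for Acta2 and 0.0707 to 0.101 for Tagln, and Tagln also without BOM plus anti-PD1 tumor 4 (0.0705). Schwann cell markers had 1 of 3 higher (33.3%) and 1 lower (33.3%), the myelin gene Mbp (-0.41). None was called higher without anti-PD1 tumor 2, 4 or 5 or BOM plus anti-PD1 tumor 1 or 2. Of 6 dendritic cell markers, Zbtb46 was called higher (0.85) and Fscn1 lower (-0.31), each 16.7% of those tested. The 6 natural killer cell markers did not pass the filter on low counts, and Ncr1, a defining one, had 8, 0, 0 and 0 counts in BOM plus anti-PD1 tumors, against 1, 0, 1, 3 and 0 counts in anti-PD1 tumors. Of 3 B and plasma cell markers 1 was lower (33.3%), Cd79a (-1.28, adjusted p = 0.0149). The Cd79a call was lost without anti-PD1 tumor 5, and Jchain was not called (-1.12). Kit, a mast cell marker that the cultured line also expressed (BOM mean 56.6 and DMSO mean 174 CPM), was higher (0.39, adjusted p = 0.0116). The tested neutrophil gene Csf3r (0.64), the keratinocyte gene Krt10 (-0.15) and the 5 erythroid genes were not called by edgeR, DESeq2 or voom, with 1 of them, Alas2 (0.95, adjusted p = 0.0563), at an unadjusted p under 0.05. Alas2, an enzyme of heme synthesis, was at 4.92, 4.08, 6.29 and 5.37 CPM in BOM plus anti-PD1 tumors, against 2.09, 3.15, 2.14, 3.06 and 2.82 CPM in anti-PD1 tumors, without overlap, and edgeR called it with only the 2 groups compared (adjusted p = 0.00936), without vehicle tumor 1 (0.0187) and without vehicle tumors 1 and 2 (0.0144). Hba-a2, a hemoglobin chain, had a log2 fold change of -1.10 (adjusted p = 0.402).

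Skeletal muscle genes had summed levels of 5.76, 7.33, 229 and 155 CPM in BOM plus anti-PD1 tumors, against 6.82 to 9.45 CPM in anti-PD1 tumors. Of these 9 tumors, BOM plus anti-PD1 tumors 3 and 4 stood above the rest. Myh1, a myosin heavy chain, was at 0, 0, 5.90 and 33.2 CPM in BOM plus anti-PD1 tumors, against 0, 0, 0, 0 and 0 CPM in anti-PD1 tumors, and Tnnt3, a muscle troponin, was at 0, 0, 22.7 and 10.3 CPM in BOM plus anti-PD1 tumors, against 0.161, 0, 0, 0 and 0 CPM in anti-PD1 tumors. In the fit of all tumors none of 11 tested muscle genes was called by edgeR, with 3 at an unadjusted p under 0.05. DESeq2 called 4 of them and limma voom 0. With only the 2 groups compared, edgeR called 2 higher. Adipocyte markers summed to 269.6, 50.1, 63.1 and 63.0 CPM in BOM plus anti-PD1 tumors, against 46.8 to 104 CPM in anti-PD1 tumors. With all tumors in the fit, 0 of 9 were called by edgeR, DESeq2 or voom and 0 had an unadjusted p under 0.05 by edgeR. Among these markers Lipe had a log2 fold change of 0.33 and Car3 of 2.61. Lipe was called by edgeR with only the 2 groups compared (adjusted p = 0.0484). The share of these tissues in other values was not tested.

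The BOM effect was also measured without anti-PD1 and in culture, in libraries that belong to neither group compared. The BOM and vehicle libraries entered the same fit and share its spread, so the calls of the 2 tumor comparisons are not independent. The culture libraries were fitted on their own. In BOM over vehicle tumors 14.5% of genes were called, of which 845 were called higher (5.90%) and 1237 lower (8.63%), or 1689 (11.7%) and 1674 (11.6%) without vehicle tumors 1 and 2. Of the 2263 genes higher with BOM plus anti-PD1, 702 were also higher with BOM alone (31.0% of the BOM plus anti-PD1 list, 83.1% of the BOM list), and 2 were lower. Without vehicle tumors 1 and 2 the number was 1380 (61.0% and 81.9%). Of the 2374 lower genes, 1019 were also lower with BOM alone (42.9% and 82.4%) and 0 were higher, or 1315 (55.4% and 78.9%) without those libraries. In culture BOM over DMSO called 3094 genes (20.3%), with 1837 higher (12.1%) and 1257 lower genes (8.25%), and 2208 and 909 with library size alone as the scaling. Among 13137 genes tested in culture as well, 732 were higher in both (34.7% and 43.5%) and 105 were opposite, while 452 were lower in both (19.6% and 38.2%) and 142 were opposite.

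**Figure D5:**
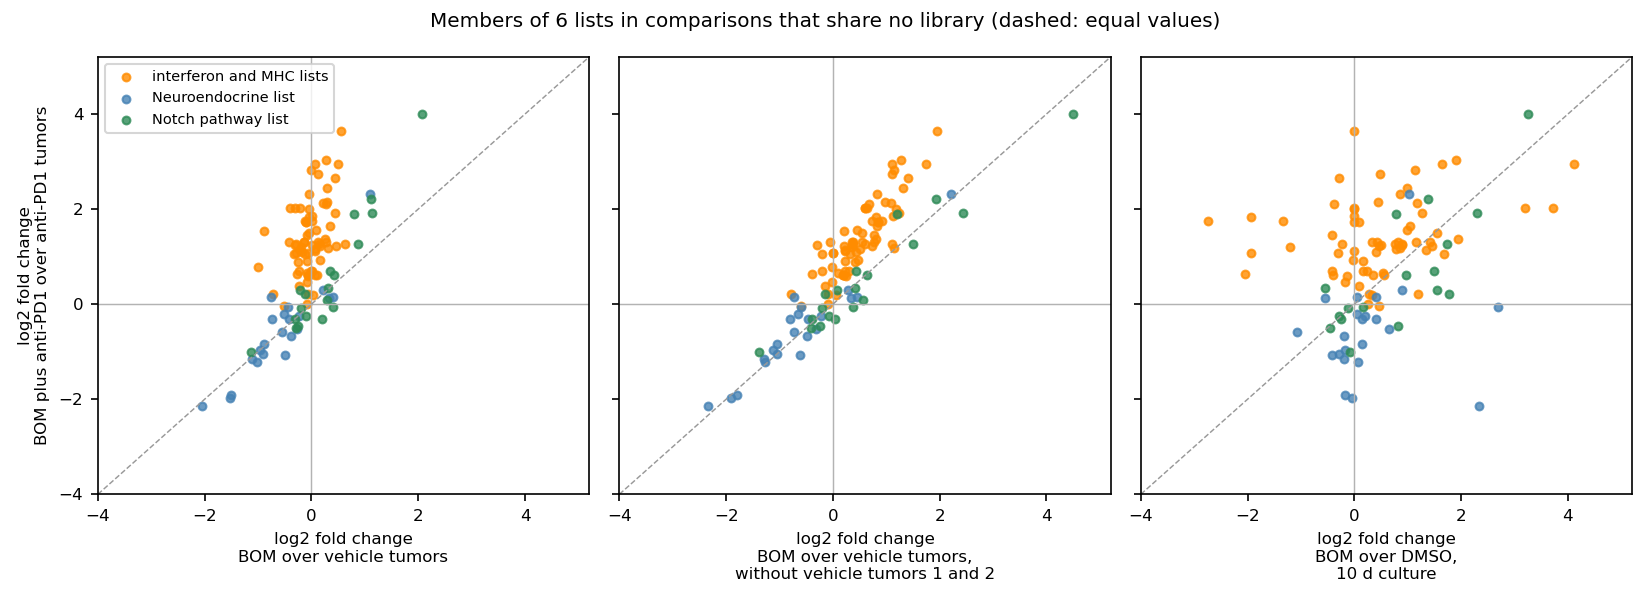
Log2 fold change of BOM plus anti-PD1 over anti-PD1 tumors (vertical axis) against that of BOM over vehicle tumors, the same without vehicle tumors 1 and 2, and BOM over DMSO in 10 d culture (horizontal axes), for members of the interferon and MHC, neuroendocrine and Notch lists. Most neuroendocrine genes lie near the line of equal values in the first 2 panels, the interferon and MHC genes lie above it, and in culture the neuroendocrine genes spread around 0.

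Without anti-PD1, BOM over vehicle tumors had 5 Notch pathway genes called higher and 2 lower, or 7 and 3 without vehicle tumors 1 and 2. Of all genes tested, 5.9% were called higher and 8.63% lower, or 11.7% and 11.6% without those libraries. Notch1 had a log2 fold change of 2.06 in BOM over vehicle tumors (adjusted p = 0.016), 4.50 without vehicle tumors 1 and 2, and 3.26 in culture. Rest had 1.54 in BOM over vehicle tumors, 3.08 without those libraries and 2.75 in culture. In the neuroendocrine list 15 of 22 genes were called lower in BOM over vehicle tumors, with or without vehicle tumors 1 and 2. In culture 4 of 24 were called lower, against 8.25% of all genes tested there, and 8 higher, against 12.1%. In a list of 20 genes chosen earlier for their BOM response in these culture data, 8 were called higher (40%, against 15.8% of all genes tested) and 5 lower (25%, against 16.6%) in BOM plus anti-PD1 over anti-PD1 tumors. Syt1 had a log2 fold change of -2.04 in BOM over vehicle tumors (adjusted p = 0.000361) but was higher in culture (2.34, adjusted p = 7.85e-09). Elavl4 fell in tumors without anti-PD1 (-1.50) and was not called in culture (-0.18, adjusted p = 0.323). Aldh1a2 fell in tumors without anti-PD1 (-5.15) and was not called in culture, where it was at a BOM mean of 4.71 and a DMSO mean of 3.93 CPM. Rcor2 was lower in each, by log2 fold changes of -1.14 in BOM over vehicle tumors, -1.38 without vehicle tumors 1 and 2 and -1.40 in culture.

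In BOM over vehicle tumors edgeR called no member of the interferon gamma, MHC class I, MHC class II, type I interferon and sensing lists. Of these, 0, 1, 0, 2 and 2 had an unadjusted p under 0.05, DESeq2 called 0, 1, 0, 1 and 1, and limma voom called 0, 1, 0, 0 and 0. Without vehicle tumors 1 and 2, the counts called higher were 1, 2, 0, 3 and 4 in the same order of lists, and 1 type I interferon gene was lower. The median log2 fold change of the interferon gamma list was then 0.96, and that of the MHC class I list 0.30. The libraries labelled vehicle 1 and 2 had the highest interferon gamma sums of their group, 843 and 629 CPM, against 168 to 312 CPM in vehicle tumors 3 to 5. In BOM tumors these sums were 296 to 371 CPM in tumors 1, 2 and 4 and 1036 CPM in tumor 3.

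Whether the BOM effect differed with and without anti-PD1 was tested directly as the difference of the 2 effects. No gene was called by edgeR (0 of 14332, lowest adjusted p = 0.391), with 1258 genes at an unadjusted p under 0.05 (8.78%). DESeq2 called 6 genes, all with a positive difference, and limma voom called 0. Without vehicle tumors 1 and 2, edgeR called 0 genes, 565 had an unadjusted p under 0.05 (3.91%) and the lowest adjusted p was 0.99978. Among list members, 15 of 18 interferon gamma and 13 of 23 MHC class I genes had an unadjusted p under 0.05 for the difference, and without the vehicle libraries 1 and 2 there were 1 and 2. The type I interferon list kept most of its genes, with 10 of 22 in the fit of all tumors and 8 without those libraries. For MHC class II there were 6 of 8 and for sensing 2 of 13, and 0 in each without those libraries. For Isg20 the difference was 1.85 ± 0.39 on the log2 scale (SE, unadjusted p = 0.000169 and adjusted p = 0.391 by edgeR), and 1.43 without those libraries (unadjusted p = 0.00139). For Irf1 it was 1.18 ± 0.31 (unadjusted p = 0.00141 by edgeR), and 0.76 without them. For H2-K1 it was 0.99 ± 0.35 (unadjusted p = 0.0114 by edgeR). For Elavl4 it was -0.41 ± 0.33 (unadjusted p = 0.219 by edgeR), and for Syt1 -0.10 ± 0.38 (unadjusted p = 0.79 by edgeR). Of 22 neuroendocrine genes, 4 had an unadjusted p under 0.05 for the difference, and 3 without vehicle tumors 1 and 2. Chgb and Insm1 were among them in both fits. For Chgb, chromogranin B, the difference was 0.92 ± 0.28 (unadjusted p = 0.00384 by edgeR), and 0.89 without those libraries (unadjusted p = 0.00897). For Insm1 it was -0.27, and -0.29 without them. A larger interferon effect of BOM under anti-PD1 than without it was therefore not shown at this number of tumors.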

How the data were processed

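Gene counts were deposited by the authors as whole-number counts, not normalized. Per the submitters' processing notes, bcl2fastq, FastQC 0.11.9, STAR 2.7 and featureCounts of Subread 2.0 were used with the mm10 build; their settings are not given in the sources used here. The kit did not mark strand, so overlapping genes on opposite strands cannot be told apart, and members of the H2, Gbp, Irgm, Tgtp and Ifit families with near-identical copies have uncertain counts.

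Genes were kept by edgeR's filterByExpr and scaled by TMM. All 18 tumor libraries entered 1 edgeR 4.0.16 quasi-likelihood fit (R 4.3.3) with 4 group means, and p-values were Benjamini-Hochberg adjusted over all genes tested, as every adjusted p given here unless another tool is named. The 10 d culture libraries were fitted on their own. SE is the fold change divided by the root of the F statistic. DESeq2 1.42.0 and limma 3.58.1 were alternatives, beside other scalings, filters, a replicate block, smaller fits and fits without each library. The procedure was tested on simulated data. No 2 libraries of a group were copies.

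Genes named are the 10 largest rises and falls, the 2 lowest p of each list and a fixed set; other genes were named after their values were seen, and some members are not reported here. The members and lists were chosen with earlier results of these data known. Of the list members, Trac, Trbc1, Trbc2, Cxcl11, Mx1, Mx2, Sting1 (Tmem173 was used) and Ighm were not analysed here. Coordinates are from the GENCODE M21 annotation in mm10, and promoter sequences from RefSeq GRCm38.p6.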

Additional observations from a re-analysis of the deposited data

Results flagged for a closer look

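Within the groups of 4 or 5 tumors, 15 values had a highest or lowest tumor far from the rest. The measure was the gap from that tumor to its nearest neighbor divided by the range of the group, both on log2 CPM with 0.5 added. Levels are printed in plain CPM. About 1 in 20 such groups would be picked by chance. The flags were drawn from many values, the sums of 31 lists and the named genes in both groups, so many of the 15 can be chance. Among BOM plus anti-PD1 tumors, tumor 3 was high for Spon2 (50.5 CPM, against 21.6 to 22.9 CPM in the other tumors of the group, gap 0.934 of the range), for Tph1 (4.10 against 0.961 to 1.27 CPM, 0.835) and for Rcor2 (69.8 against 41.9 to 45.0 CPM, 0.862). The same tumor was low for Jchain (0.898 against 8.34 to 10.2 CPM, 0.906) and for the summed B and plasma cell list (4.49 against 13.1 to 14.5 CPM, 0.915). Tumor 1 was high for the adipocyte sum (269.6 against 50.1 to 63.1 CPM, 0.863). Tumor 2 was low for Mavs (29.1 against 33.7 to 34.2 CPM, 0.914), and tumor 4 was low for the mast cell sum (110.4 against 128 to 129.8 CPM, 0.920).

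Among anti-PD1 tumors, tumor 1 was high for the type I interferon sum (391.9 against 195 to 230.5 CPM, 0.762) and for Tnnt3 (0.161 CPM against 0 in the others, gap 1 of the range). Tumor 2 was high for the Schwann cell sum (211 against 164 to 174 CPM, 0.766) and for Mbp (200.7 against 154 to 166 CPM, 0.723). Tumor 4 was low for Mavs (14.3 against 20.3 to 22.3 CPM, 0.786) and Kdr (14.7 against 19.2 to 20.9 CPM, 0.766), and tumor 5 was low for Notch1 (1.83 against 4.38 to 5.89 CPM, 0.733). For Spon2, Tph1, Rcor2, Notch1, Mavs and Kdr these tumors stayed on their own group's side, and the groups did not overlap.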

How the results depend on the processing

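Calls of BOM plus anti-PD1 over anti-PD1 tumors numbered 3727 to 5075 over all alternatives (1891 to 2484 higher and 1776 to 2591 lower), all within 1.5 times the reported counts. The difference of the BOM effects gave 0 calls except with DESeq2 (6, all 6 higher). BOM over vehicle gave 1385 calls (794 lower) when only those groups were fitted and 3363 (1689 higher) without vehicle tumors 1 and 2. Leaving out each library in turn gave 1210 to 2971 such calls, 422 to 1390 higher and 721 to 1581 lower. The higher count was 1390 without vehicle tumor 1, 477, 452 and 422 without vehicle tumors 3, 4 and 5, and 546 and 449 without BOM tumors 1 and 4. In culture the same procedure gave 1858 to 3019 calls, 1268 to 1823 higher and 590 to 1196 lower, with 590 lower without BOM culture 1 and 755 without BOM culture 2. With the replicate block, 3936 genes were called in BOM plus anti-PD1 over anti-PD1, 1617 in BOM over vehicle, 3383 in culture and 0 for the difference. Same-numbered tumors of BOM plus anti-PD1 and anti-PD1 had correlations of deviations of 0.439, -0.113, -0.123 and 0.0457. Pairs of different number had -0.411 to 0.250. The labels state no pairing, and these correlations cannot decide whether tumors were paired by design. Under the block 10 MHC class I genes were called in place of 17. Of 88 named genes, 21 crossed the threshold under some alternative. A change of sign was counted only where the gene was called in the main or the alternative fit, and 0 reversed in this sense. Jchain, which was not called, had log2 fold changes from -1.41 to 0.02. The fit without vehicle tumors 1 and 2 was chosen after seeing the data. Depth limits genes of a few counts, such as Ifng and Ncr1.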

Other observations

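Outside the genes named by rule, the 10 with the lowest p in BOM plus anti-PD1 over anti-PD1 tumors were chosen after seeing their values. All 10 were lower without overlap between the groups, which a choice by p favors. The direction of this ranking depended on the fit. Of the 100 lowest p, 84 were lower with all tumors and 24 without vehicle tumors 1 and 2. Isl1, a LIM homeobox factor of neurons and endocrine cells, averaged 1.42 ± 0.536 CPM in BOM plus anti-PD1 tumors and 13.3 ± 1.001 CPM in anti-PD1 tumors (SD, n = 4 and 5; log2 fold change -3.20 ± 0.30, SE, edgeR adjusted p = 8.00e-06). Calcr, the calcitonin receptor, averaged 33.8 ± 2.48 CPM in BOM plus anti-PD1 tumors and 250.03 ± 20.7 CPM in anti-PD1 tumors (SD; log2 fold change -2.89), and Cntnap5a, a contactin-associated protein, had -3.21. Runx1t1, a corepressor, had -1.22, Fgf13 -1.86 and Tll1 -2.60, as log2 fold changes. The others were Epb41l4a (-2.76), Hecw1 (-1.67), Khdrbs2 (-2.01) and Plk5 (-2.19). All 10 were also called lower in BOM over vehicle tumors, against 8.63% of all genes tested. That comparison shares its fit and spread with the ranking, so the choice by p favored these calls too and the 2 shares are not alike. In culture 7 of them were lower, against 8.25% of all genes tested there. Calcr and Plk5 were not called in culture, and Cntnap5a was higher (log2 fold change 0.99, edgeR adjusted p = 0.000135).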
